A study of Homo sapiens with 4 samples.

Results

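EGR1, EGR2, EGR3, IER2, IER3, IER5, KLF4, KLF6, KLF10 and ZFP36 are 10 immediate early genes outside the AP-1 family, and they were taken by symbol from 52402 different gene symbols. RNA was sequenced from cultures labelled SKOV3 and OVCAR3, which are human ovarian cancer lines. Each line was sampled as knockout (KO) cells, in which CRISPR-Cas9 was aimed at env, the envelope gene of HERV-K119 (an endogenous retrovirus), and as mock control cells. The 4 groups, SKOV3 KO, SKOV3 mock, OVCAR3 KO and OVCAR3 mock, held 1 library each, so KO and mock of a line cannot be compared against a spread between replicates. The question put to these genes was whether their RNA differed between KO and mock cells in each line. All 4 cultures grew in medium with 10% fetal bovine serum and received hygromycin at 100 µg/mL for 2 days, started about 18 h after transfection, in mock cells as in KO cells. Whether the KO cultures were clones or pools, and how long after the last change of medium RNA was taken, are not given in the sources used. The provirus itself was not analysed here.

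Immediate early genes are transcribed within minutes of a growth factor, serum or stress signal, from transcription factors already present in the cell. Serum response factor (SRF) and its ETS partners, activated by the ERK kinases, bind CArG boxes in many of their promoters, and the messages are short-lived. In epithelial and carcinoma cells the EGR and KLF proteins are zinc finger transcription factors, the IER proteins are small regulators without a shared DNA-binding domain, and ZFP36 (tristetraprolin) binds AU-rich elements and speeds the decay of messages.

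Levels are CPM, counts relative to library size scaled by the trimmed mean of M values, and ratios are log2 of the first-named group over the second. Square brackets hold the exact 95% interval of a ratio of counts, which covers counting error only. A gene was counted as lower or higher when its level differed at least 2-fold and 1 or both of the libraries reached a CPM of 1. Total counts were between 15145483 and 22057693. The library labelled OVCAR3 KO stood apart, with 21.9% of its counts from mitochondrially encoded genes against 5.93% in OVCAR3 mock, and with 75.0% from protein-coding genes against 92.3% in OVCAR3 mock. The nuclear RNA NEAT1 was at 1612 CPM in OVCAR3 KO and 142 CPM in OVCAR3 mock. Line markers ran partly with the labels and partly against them. MUC16, which OVCAR3 cells are known to express, was at 6.18 CPM in OVCAR3 KO and 2.74 CPM in OVCAR3 mock, against 0.0634 CPM in SKOV3 KO and 0.0443 CPM in SKOV3 mock. ERBB2, amplified in SKOV3 cells, was at 73.3 CPM in OVCAR3 mock and 58.5 CPM in SKOV3 mock. CDKN2A, which is deleted in SKOV3 cells as usually described, was at 91.2 CPM in SKOV3 KO and 90.6 CPM in SKOV3 mock. Of the other line markers looked at, WT1 had 0 counts in all 4 libraries. PAX8 lay between 3.33 CPM in OVCAR3 KO and 8.83 CPM in OVCAR3 mock. VIM lay between 0.950 CPM in OVCAR3 KO and 2.35 CPM in SKOV3 KO. Line names below are therefore the labels of the libraries.

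Promoter sequences are shown for EGR1 and EGR2, the members in whose windows a CArG box was found. They are also shown for KLF6 and ZFP36, whose OVCAR3 KO levels were among the lowest relative to mock and in whose windows none was found. IER5, as low as KLF6, and IER2 and KLF4 also had none and are not shown. Each sequence is the stretch of 250 bases before a RefSeq transcription start on GRCh38.p14, written 5′ to 3′ on the strand of the gene. Capitals mark CArG boxes (the element CCATATATGG or a close form of it) in EGR1 and EGR2, and the EGR binding sequence GCGGGGGCG in KLF6. ZFP36 has no capitals.
EGR1, chr5:138465229-138465478, plus strand: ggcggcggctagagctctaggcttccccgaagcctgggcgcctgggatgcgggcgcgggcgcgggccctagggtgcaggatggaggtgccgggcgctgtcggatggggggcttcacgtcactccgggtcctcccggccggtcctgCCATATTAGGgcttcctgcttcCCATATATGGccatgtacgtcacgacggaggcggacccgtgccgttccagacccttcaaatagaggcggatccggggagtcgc
EGR2, chr10:62816367-62816616, minus strand: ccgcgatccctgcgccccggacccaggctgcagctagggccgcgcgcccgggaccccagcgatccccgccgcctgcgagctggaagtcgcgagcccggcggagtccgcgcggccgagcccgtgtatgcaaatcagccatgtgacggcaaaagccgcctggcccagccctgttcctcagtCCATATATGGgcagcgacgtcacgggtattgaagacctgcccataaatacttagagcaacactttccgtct
KLF6, chr10:3785210-3785459, minus strand: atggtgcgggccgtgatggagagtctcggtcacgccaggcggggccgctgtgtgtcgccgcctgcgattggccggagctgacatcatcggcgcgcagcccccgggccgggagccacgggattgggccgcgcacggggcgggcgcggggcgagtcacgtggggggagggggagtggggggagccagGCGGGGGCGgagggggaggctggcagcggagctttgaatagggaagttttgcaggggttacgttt
ZFP36, chr19:39406597-39406846, plus strand: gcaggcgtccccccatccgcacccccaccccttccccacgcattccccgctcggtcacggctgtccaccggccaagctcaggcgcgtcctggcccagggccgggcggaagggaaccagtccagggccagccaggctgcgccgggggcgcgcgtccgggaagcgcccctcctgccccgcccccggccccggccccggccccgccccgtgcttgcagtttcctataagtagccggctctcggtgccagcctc

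Motifs were searched on both strands in RefSeq windows of 300 bases, 250 before and 50 after each start. Windows were found for 7 of the 10 genes, 9 windows in all, since EGR2 has several starts. CArG boxes (CC, a run of A or T, then GG) were present in 1.29% of 35116 windows of all genes. EGR1 held 2 of them, beginning 105 and 83 bases before its start, and the EGR2 window printed above held 1, beginning 71 bases before its start. The sequence TGACG of cyclic AMP response factors was found for EGR1, EGR2, IER2 and KLF4, and in 24.6% of all windows. The GC box GGGCGG was found for EGR2, IER2, KLF4, KLF6 and ZFP36, and in 45.0% of all windows. GCGGGGGCG was found for KLF6 alone among the members, overlapping a GGGCGG, and in 5.07% of all windows. CCGGAA, a core bound by ETS factors, was found for IER2 and IER5 and in 17.2% of all windows. These matches are letters in a window, and no binding was measured.

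In OVCAR3, 7 of the 9 genes with enough RNA to be measured were lower in KO than in mock cells: EGR2, IER2, IER5, KLF4, KLF6, KLF10 and ZFP36. The share of all 15560 measured genes that was lower by the same rule was 15.4%, and 18.2% among protein-coding genes. Of the 9 genes 0 were higher, against 22.5% of all measured genes and 12.8% of 12678 protein-coding genes. All 9 had a ratio below 0, as did 43.8% of all measured genes and 50.7% of protein-coding ones. The median ratio of the 9 was -1.43, against 0.16 over all measured genes and -0.02 over protein-coding genes. In SKOV3, 0 of the 9 were lower and 0 were higher, where 0.739% and 0.799% of 13524 measured genes were, and their median ratio was -0.06 against 0.01 for all genes. There 5 of the 9 ratios were below 0, against 48.9% of all. In these bulk samples, fewer cells of a kind and less RNA per cell cannot be told apart.

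**Figure D1:**
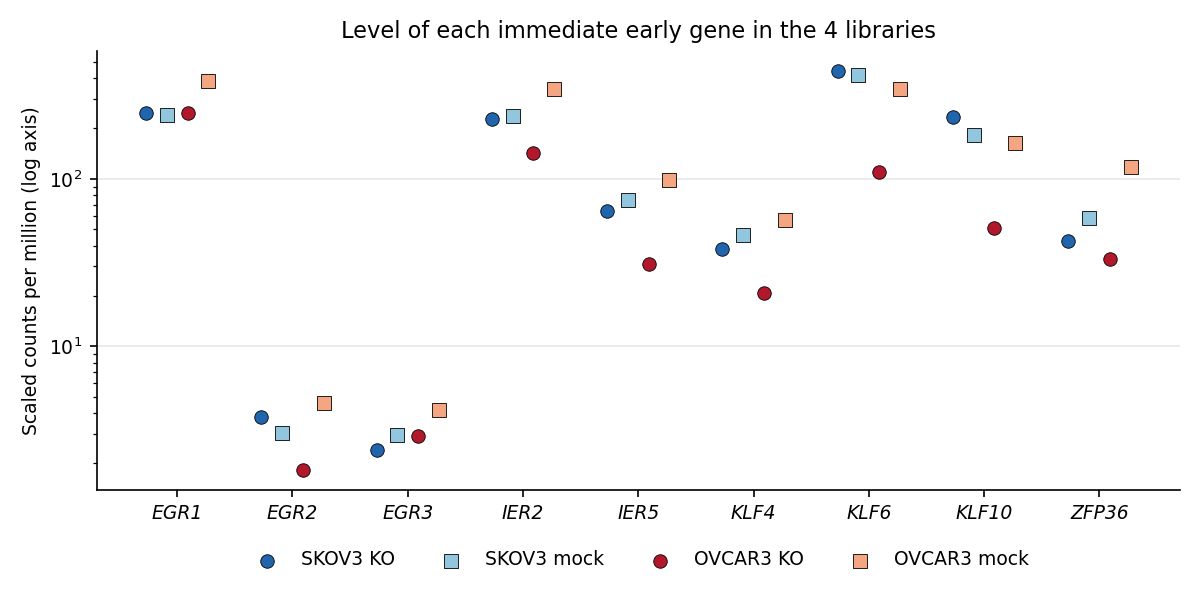
Level of each gene in the 4 libraries, in scaled CPM on a log axis, 1 point per library, with circles for KO and squares for mock. OVCAR3 KO is the lowest point for 7 of the 9 measured genes and OVCAR3 mock the highest for 7. IER3, at or below 0.133 CPM in every library, is not drawn.

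EGR1 is the best known serum-response gene of the group, and its protein binds GC-rich sites of growth factor and matrix genes. It stood at 249 CPM in SKOV3 KO and 242 CPM in SKOV3 mock, and at 248 CPM in OVCAR3 KO and 383 CPM in OVCAR3 mock. OVCAR3 mock was thus the one high library, and the other libraries lay within a narrow band. The ratio was 0.04 [-0.02 to 0.10] in SKOV3 and -0.63 [-0.68 to -0.57] in OVCAR3. That is 1.54-fold lower in OVCAR3 KO, short of the 2-fold rule, and 24.2% of measured genes had a ratio at or below it. The locus spans chr5:138465479-138469303, and the pair of CArG boxes shown above lies just before it.

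EGR2, a regulator of myelinating glia and of lymphocytes, was a rare message. Its counts were 60 in SKOV3 KO and 69 in SKOV3 mock, and 27 in OVCAR3 KO and 75 in OVCAR3 mock. In scaled terms this was 3.81 CPM in SKOV3 KO and 3.06 CPM in SKOV3 mock, and 1.83 CPM in OVCAR3 KO against 4.57 CPM in OVCAR3 mock. The SKOV3 ratio of 0.31 had an interval that held 0 [-0.21 to 0.84], and the OVCAR3 ratio was -1.26 with a wide interval [-2.01 to -0.66]. At this depth the SKOV3 libraries could not be told apart for EGR2.

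EGR3, itself a target of EGR1 and a factor in muscle spindles and lymphocytes, was as rare. It had 2.41 CPM in SKOV3 KO and 2.97 CPM in SKOV3 mock, and 2.92 CPM in OVCAR3 KO and 4.14 CPM in OVCAR3 mock. Its ratios were -0.29 [-0.91 to 0.30] in SKOV3 and -0.49 [-1.09 to 0.07] in OVCAR3, so no difference was detectable in either line, on counts between 38 and 68. EGR3 overlaps a long non-coding RNA gene in the annotation, and since the strand setting of the counting is not given, reads of both cannot be separated here.

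IER2, a short-lived nuclear protein linked to cell motility, was at 226 CPM in SKOV3 KO and 236 CPM in SKOV3 mock. It was at 143 CPM in OVCAR3 KO and 342 CPM in OVCAR3 mock. The SKOV3 libraries lay close together, with a ratio of -0.06 [-0.12 to -0.00], and the OVCAR3 ratio was -1.25 [-1.33 to -1.18], 2.38-fold lower in KO. IER5, a related protein that acts with heat shock factor HSF1, was at 63.9 CPM in SKOV3 KO and 74.9 CPM in SKOV3 mock. It was at 30.9 CPM in OVCAR3 KO and 98.6 CPM in OVCAR3 mock. The IER5 ratios were -0.23 [-0.34 to -0.12] in SKOV3 and -1.67 [-1.83 to -1.52] in OVCAR3. Both genes are annotated with a single exon, at chr19:13150411-13154911 and chr1:181088700-181092900.

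IER3, an immediate early gene that modulates apoptosis and ERK signalling, could not be measured. It had 0 counts in SKOV3 KO, 3 in SKOV3 mock, 0 in OVCAR3 KO and 0 in OVCAR3 mock. With a count of 0, up to 3 counts remain possible, or 0.198 CPM of unscaled depth in SKOV3 KO, 0.190 in OVCAR3 KO and 0.184 in OVCAR3 mock. No ratio is given. Its symbol stands in 6 rows of each table, and the locus (chr6:30743199-30744547) lies in the HLA region. Each of the 32 protein-coding neighbours within 500 kb also stands in at least 5 rows, and 17 of the 32 had at most 10 counts in every library, against 29.2% of 18306 protein-coding genes with a single row. ABCF1, a neighbour needed for translation, was at 0 in all 4 libraries, so a count of 0 here does not show that IER3 was not expressed.

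KLF4, a factor of epithelial differentiation and pluripotency, was at 38.3 CPM in SKOV3 KO and 46.3 CPM in SKOV3 mock. It was at 20.9 CPM in OVCAR3 KO and 56.5 CPM in OVCAR3 mock. OVCAR3 KO was lowest and OVCAR3 mock highest, with ratios of -0.27 [-0.42 to -0.13] in SKOV3 and -1.43 [-1.62 to -1.25] in OVCAR3.

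KLF6, a growth-restraining factor with a tumour-suppressor role in several carcinomas, was at 443 CPM in SKOV3 KO and 419 CPM in SKOV3 mock. It was at 110 CPM in OVCAR3 KO and 346 CPM in OVCAR3 mock. A single library, OVCAR3 KO, was low, and the other libraries were within the range 346 to 443 CPM. The SKOV3 ratio was 0.08 [0.03 to 0.12] and the OVCAR3 ratio -1.66 [-1.74 to -1.58], 3.16-fold lower in KO.

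KLF10, also named TIEG1 and induced by TGF-beta, had the same shape. It was at 233 CPM in SKOV3 KO and 183 CPM in SKOV3 mock, and at 50.8 CPM in OVCAR3 KO and 165 CPM in OVCAR3 mock. SKOV3 KO was the highest library and OVCAR3 KO the lowest, a range of 4.58-fold that was the widest among the 9 measured genes. The ratios were 0.35 [0.28 to 0.41] in SKOV3 and -1.70 [-1.82 to -1.58] in OVCAR3.

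ZFP36 was at 42.5 CPM in SKOV3 KO and 58.3 CPM in SKOV3 mock, and at 33.4 CPM in OVCAR3 KO and 118 CPM in OVCAR3 mock. KO was below mock in both lines, with ratios of -0.46 [-0.59 to -0.32] in SKOV3 and -1.82 [-1.97 to -1.68] in OVCAR3. These were the lowest ratios of the 9 genes in both lines. In SKOV3, 4.33% of measured genes had a ratio at or below that of ZFP36, and in OVCAR3 3.82%. The gene lies at chr19:39406847-39409407.

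**Figure D2:**
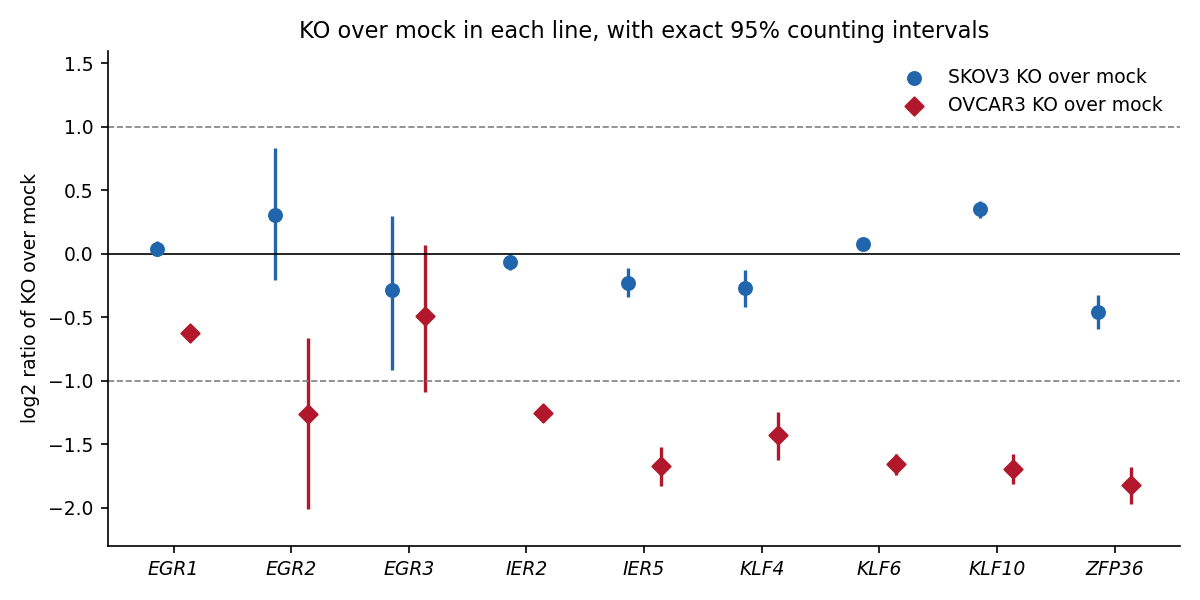
Log2 ratio of KO over mock for the 9 measured genes in each line, with exact 95% counting intervals as bars and dashed lines at a 2-fold difference. All SKOV3 points lie between -0.46 and 0.35, and 7 of the OVCAR3 points lie below -1, from -1.25 to -1.82.

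The counting intervals left out 0 for 6 of the 9 SKOV3 ratios, 4 below 0 and 2 above, and for 8 of the 9 OVCAR3 ratios, all below 0. The same count was not made over all measured genes, so it is no trait of the members. At high counts even a small ratio leaves out 0, such as 0.08 for KLF6 in SKOV3. The difference of the log2 ratios, OVCAR3 minus SKOV3, was below 0 for all 9 genes. It was -2.045 for KLF10, -1.74 for KLF6, -1.57 for EGR2, -1.44 for IER5 and -1.37 for ZFP36. It was -1.19 for IER2, -1.16 for KLF4, -0.66 for EGR1 and -0.20 for EGR3, and the EGR3 counting interval alone held 0. These intervals hold no spread between cultures. Across the 9 genes the size of the ratio in OVCAR3 did not follow that in SKOV3 (Pearson r -0.02, Spearman rho -0.03, a description over genes of the same 4 libraries). By sign alone, EGR1, EGR2, KLF6 and KLF10, 4 of the 9 genes, were higher in SKOV3 KO and lower in OVCAR3 KO, as were 24.4% of 13294 genes measured in both lines. For KLF6 and KLF10 the counting intervals left out 0 in both lines.

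**Figure D3:**
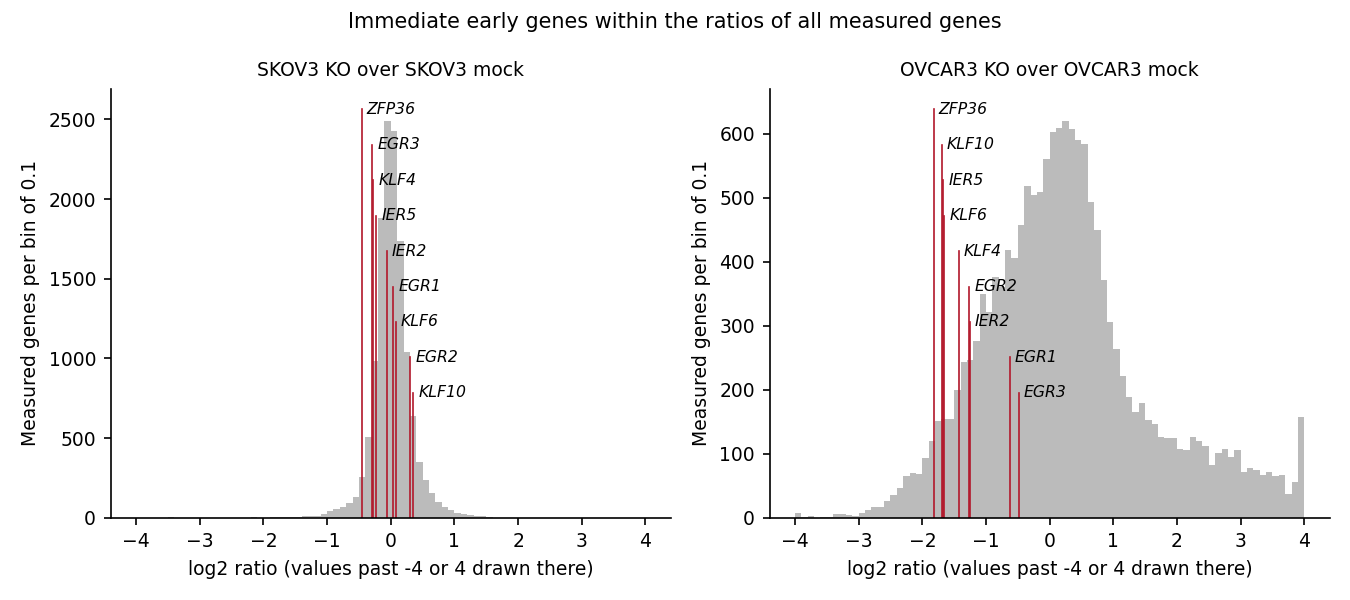
Number of measured genes by log2 ratio of KO over mock in SKOV3 (left) and OVCAR3 (right), in bins of 0.1, with the 9 genes as vertical lines whose heights only separate the names. The OVCAR3 distribution is broad around its median of 0.16 and the marks fall in its lower part; the SKOV3 distribution is narrow around 0.01.

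Since the lines are the only repeats of the knockout, a fit over all 4 libraries tested a KO effect shared by both lines. edgeR's quasi-likelihood test with the line as a block called 0 of the 9 genes at an adjusted p of 0.05, and 0 of 13670 genes in all (0%). At an unadjusted p under 0.05 it held 140 genes (1.02%), and ZFP36 was the one member among them. The fitted ZFP36 log2 fold change was -1.14 (unadjusted p = 0.0324, Benjamini-Hochberg adjusted p = 0.956, edgeR), lower in KO in 2 of 2 lines. The others had fitted values from -0.29 for EGR1 to -0.95 for IER5, with unadjusted edgeR p-values from 0.0698 for IER5 to 0.532 for EGR1. DESeq2's Wald test and limma-voom also called 0 genes in all, members included, and held 412 and 306 genes at an unadjusted p under 0.05. Without the OVCAR3 KO library no block on the line could be kept, so that fit set SKOV3 KO against both mock libraries and is another contrast. It called 0 members, and says nothing on a KO effect shared by both lines.

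Both mock libraries were set side by side for the level from which the genes start. They share these libraries with the KO comparisons, so the values are not independent of the ratios above. In OVCAR3 mock, 1 of the 9 genes, ZFP36, was at least 2-fold higher than in SKOV3 mock, with a ratio of 1.02 [0.92 to 1.12], against 9.47% of 13721 measured genes, and 0 were lower, against 5.52%. EGR1 followed with 0.66 [0.61 to 0.72], EGR2 with 0.56 [0.09 to 1.07] and IER2 with 0.53 [0.48 to 0.59]. EGR3 at 0.46, IER5 at 0.40 and KLF4 at 0.29 were smaller. KLF6 at -0.28 [-0.32 to -0.23] and KLF10 at -0.15 [-0.22 to -0.08] were the 2 genes lower in OVCAR3 mock. Between the KO libraries, 4 of the 9 genes were lower in OVCAR3 KO than in SKOV3 KO, against 14.5% of measured genes. That count was 2 with TMM over protein-coding genes, where 2097 of 16025 measured genes were lower. It was also 2 with the trend on GC content and length removed (1920 of 12703 genes). It was 5 with DESeq2 size factors (2927 of 15331), no scaling factor (2808 of 15464) or TMM over all rows (3374 of 15239). EGR1 had a ratio of -0.00 for OVCAR3 KO over SKOV3 KO, whose sign changed with the scaling, and KLF6 and KLF10 had ratios of -2.01 and -2.19.

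Levels were compared between genes as CPM per kilobase of the longest annotated transcript. In OVCAR3 mock EGR1 (122) and IER2 (117) were highest, followed by KLF6 (74.4), ZFP36 (66.3) and KLF10 (45.1). OVCAR3 KO kept EGR1 (79.1) and IER2 (48.9) at the top, with KLF6 at 23.5, ZFP36 at 18.7 and KLF10 at 13.9. In SKOV3 KO KLF6 led with 95.1, ahead of EGR1 (79.2), IER2 (77.1) and KLF10 (63.7), and in SKOV3 mock with 90.1, ahead of IER2 (80.6), EGR1 (77.0). IER5 and KLF4 lay between 7.37 and 23.5 in all libraries. EGR2 and EGR3 were the least abundant, between 0.556 and 1.54 CPM per kilobase. With 1 library per group, which neighbours in these orders differ beyond the spread between cultures was not tested.

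OVCAR3 ratios also moved with base composition. Protein-coding genes split into 5 equal groups by the GC content of the transcript had median OVCAR3 ratios of 0.48, 0.22, -0.18, -0.51 and -0.70, from the lowest to the highest GC. KLF6 (45.9% GC, ratio -1.66) fell in the second group, in which 5.29% of genes were lower. EGR2, EGR3, IER5 and KLF10 fell in the third (17.6% lower), EGR1, KLF4 and ZFP36 in the fourth (28.9%) and IER2 (61.7% GC) in the fifth (37.8%). After removal of a smooth trend on GC content and length, the median of the 9 genes was -1.10 and that of all genes -0.13, and 6 of the 9 were still lower, against 12.9% of 12678 genes. KLF6 was unmoved at -1.66 and KLF10 was at -1.66, whereas IER2 was at -0.70 and EGR1 at -0.24. Genes with 1 exon, such as IER2 and IER5, had a median ratio of -0.34 over 280 genes, and genes with 2 exons, such as the EGR genes and ZFP36, of -0.02. The part of base composition and of the mitochondrial share in these ratios was not tested beyond this.

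**Figure D4:**
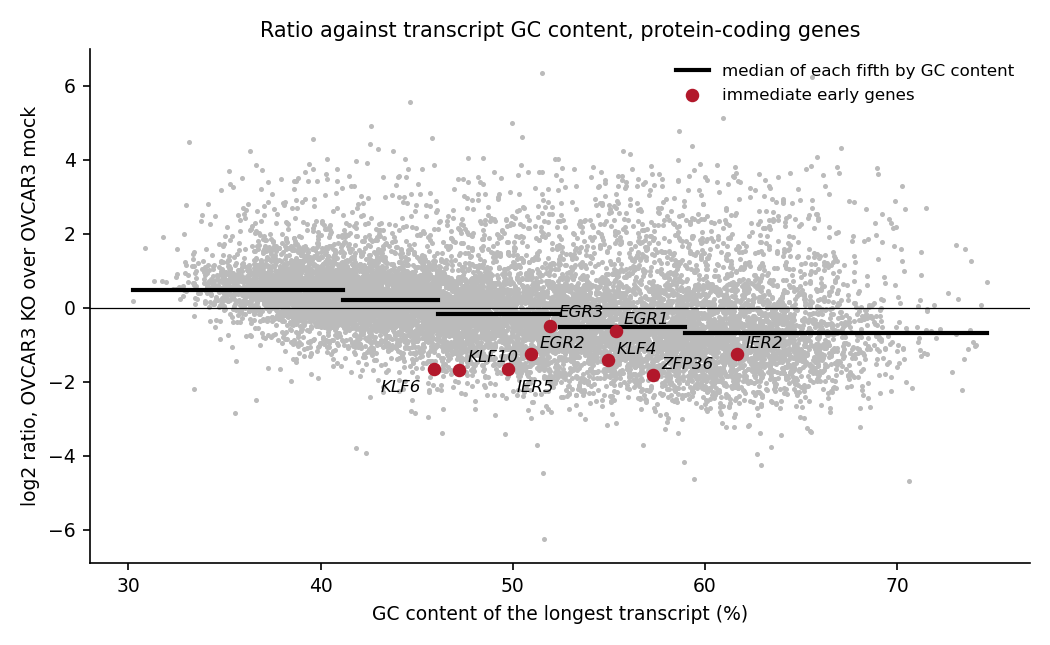
OVCAR3 log2 ratio of KO over mock against transcript GC content (percent), with protein-coding genes as small points, their median in each of 5 GC groups as a bar and the 9 genes named. The bars fall from 0.48 to -0.70, and KLF6, KLF10, IER5 and ZFP36 lie furthest below their bars.

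The regulators and relatives of these genes were described from lists. Beside their counts, 15.4% of all measured genes were lower in OVCAR3 KO, and 12.9% of 12678 genes with the trend on GC content and length removed. Of SRF and its cofactors, 4 of 6 were lower in OVCAR3 KO and 0 were higher, with a median ratio of -1.20. With the trend on GC content and length removed, 2 of the 6 were lower, ELK3 and SRF, and the median was -0.90. SRF was at 17.0 CPM in OVCAR3 KO and 55.1 CPM in OVCAR3 mock, a ratio of -1.69 [-1.91 to -1.5], and at 56.5 CPM in SKOV3 KO and 57.9 CPM in SKOV3 mock. ELK3, an ETS partner of SRF, had an OVCAR3 ratio of -1.09 [-1.21 to -0.97], and ELK4, another, of 0.65 [0.54 to 0.76]. None of the 6 passed the rule in SKOV3.

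NAB1 and NAB2, the corepressors that bind EGR proteins, stood apart from each other. NAB2, itself induced by EGR1, was at 30.7 CPM in OVCAR3 KO and 86.6 CPM in OVCAR3 mock, a ratio of -1.49 [-1.65 to -1.34] that was -0.95, short of the rule, with the trend removed. NAB1 was at 95.4 CPM in OVCAR3 KO and 51.5 CPM in OVCAR3 mock, a ratio of 0.89 [0.76 to 1.01]. In SKOV3 the ratios were -0.49 for NAB2 and -0.18 for NAB1, neither past the rule.

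Relatives from the same families were lower in OVCAR3 KO for 7 of 10, against 15.4% of all measured genes, with a median ratio of -1.53 and all 10 below 0. EGR4, among the 7, and KLF13 reached a CPM of 1 in OVCAR3 mock but not in OVCAR3 KO. They had 4 and 7 counts in OVCAR3 KO, and passing the filter through mock already favoured a lower ratio. KLF2, a factor of endothelial and lymphoid quiescence, was at 32.8 CPM in OVCAR3 KO and 260 CPM in OVCAR3 mock, a ratio of -2.98 [-3.13 to -2.85], and at 41.5 CPM in SKOV3 KO and 41.4 CPM in SKOV3 mock. KLF5, a pro-growth factor of epithelia, had an OVCAR3 ratio of -1.74, and ZFP36L1, a paralogue of ZFP36, of -1.35. Of other immediate early genes, 14 of 21 were lower in OVCAR3 KO and 0 higher, with a median of -1.38. PHLDA1 was at -1.46, MYC at -1.97 and TRIB1 at -0.94. NR4A3, among the 14, also reached a CPM of 1 in OVCAR3 mock but not in OVCAR3 KO, where it had 9 counts. The AP-1 subunits were lower for 6 of 7, with a median of -1.88; JUN was at -2.75, FOSL1 at -2.73 and JUND at -1.88. With the trend removed, 8 of the 10 relatives, 13 of the 21 other immediate early genes and 5 of the 7 AP-1 subunits were lower. The share of 12678 genes lower in this way was 12.9%. In SKOV3 none of these relatives, other immediate early genes or AP-1 subunits passed the rule in either direction, and their medians were -0.17, 0.02 and -0.04.

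Genes downstream were mixed in size. The share of all measured genes lower in OVCAR3 KO was 15.4%. Of the EGR1 targets, 3 of 6 measured were lower in OVCAR3 KO, with TGFB1 at -2.52, PDGFA at -0.70 and F3 at -0.32. Messages that ZFP36 binds for decay were measured for 7 of 11, and 5 of those 7 were lower in OVCAR3 KO, where ZFP36 itself was lower. Among these 5, CXCL1, PTGS2, CXCL2 and CCL20 reached a CPM of 1 in OVCAR3 mock but not in OVCAR3 KO. They had between 2 and 9 counts in OVCAR3 KO, and passing the filter through mock already favoured a lower ratio. CXCL8 was at -2.20, VEGFA at -0.67 and LIF at 0.30. No gene of either list passed the rule in SKOV3. Of 10 steady reference genes, 2 were lower in OVCAR3 KO, ACTB and GUSB, named after their values were seen, and the median was -0.13. ACTB was at 474 CPM in OVCAR3 KO and 2550 CPM in OVCAR3 mock, a ratio of -2.43, lower than that of any member. GUSB was at 13.2 CPM in OVCAR3 KO and 33.8 CPM in OVCAR3 mock. Of the 10 ratios, 6 were below 0 and 4 above, up to 0.96. RPLP0 was at 0.12, GAPDH at -0.61 and YWHAZ at -0.18.

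**Figure D5:**
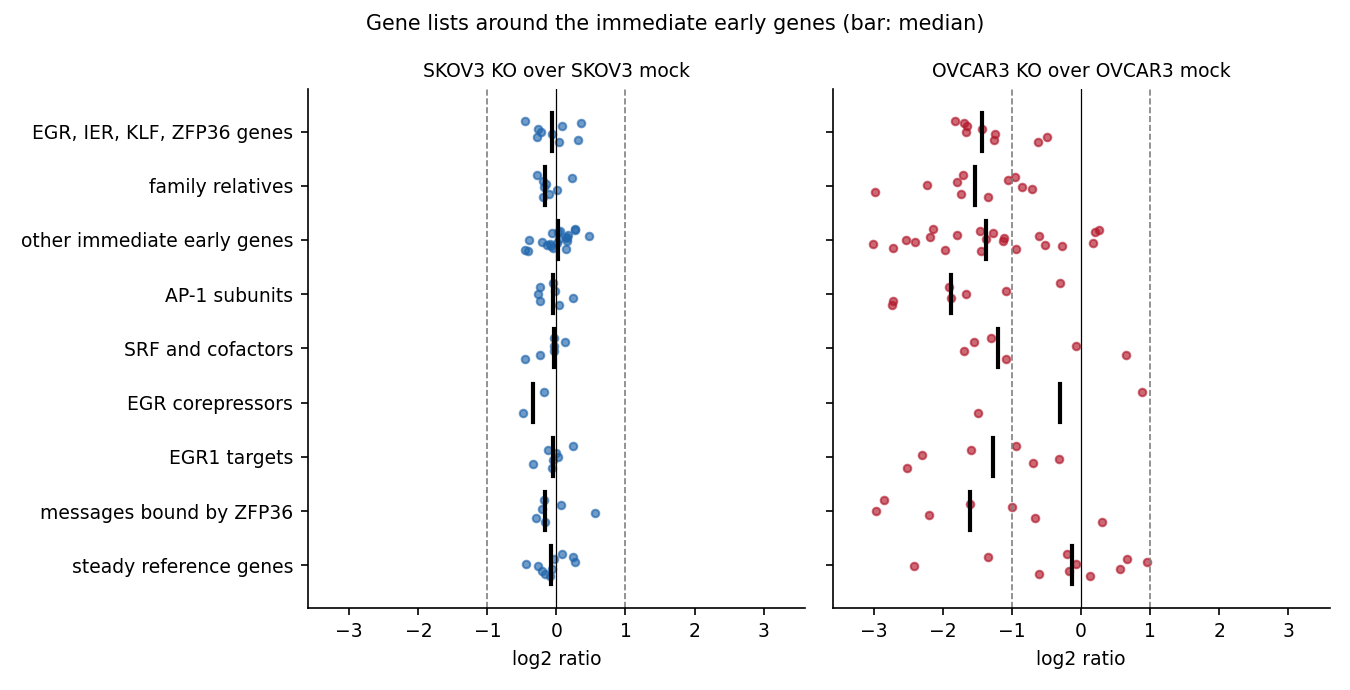
Log2 ratio of KO over mock for each measured gene of the lists, 1 point per gene, in SKOV3 (left) and OVCAR3 (right), with the median of each list as a bar and dashed lines at a 2-fold difference. No SKOV3 point passes a dashed line. OVCAR3 medians lie at -1.43 for the EGR, IER, KLF and ZFP36 genes, -1.53 for their relatives, -1.88 for AP-1 subunits and -0.13 for steady reference genes.

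Markers of the labelled epithelial cell type were present in all 4 libraries, with a summed level of 5031 CPM in SKOV3 KO and 5404 CPM in SKOV3 mock. The sum was 1966 CPM in OVCAR3 KO and 7303 CPM in OVCAR3 mock. Of the 5 markers, 4 were lower in OVCAR3 KO, against 15.4% of all measured genes and 18.2% of protein-coding ones. The part of this difference in the ratios of the members was not tested. Of the 6 fibroblast markers, 4 were at 0 in SKOV3 KO and 3 in each of the other libraries, the sum lay between 17.7 and 35.2 CPM, and nearly all of it was COL1A1. Of the 5 leukocyte markers, PTPRC and CD3E were at 0 in all 4 libraries, and the sum of between 9.77 and 35.7 CPM was mostly CD68. LYZ had 17 counts in OVCAR3 KO and 5 in OVCAR3 mock, and CD14 had 6 and 1. The 3 endothelial markers summed to between 0.221 and 1.28 CPM.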

How the data were processed

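The authors deposited unnormalised read counts for each gene symbol. The submitters' processing notes name TopHat and GRCh38. Per the labels' protocols, Trizol was used for extraction and a directional NEBNext Ultra II kit for the libraries. Which counting tool, annotation release and strand setting were used is not given in the sources used here. Each table had 58173 rows, and rows of 1 symbol were summed. No column of another sample was present.

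Counts were scaled by edgeR 4.0.16 (R 4.3.3) with TMM over the 13670 genes that reached a CPM of 1 in 2 or more libraries. Factors were 1.04 for SKOV3 KO, 1.02 for SKOV3 mock, 0.931 for OVCAR3 KO and 1.01 for OVCAR3 mock. Log2 ratios used a prior count of 2, and their intervals are Clopper-Pearson bounds (SciPy 1.17.1) without it. The fit over both lines used edgeR's quasi-likelihood test with 1 residual degree of freedom, Benjamini-Hochberg adjustment and a threshold of 0.05. That degree of freedom is the difference in KO response between the lines, so the p-values hold no spread between repeated cultures. No label says that cultures were repeated. Alternatives were DESeq2 1.42.0, limma 3.58.1 voom, other scalings, prior counts, filters and folds, and a spline trend (5 degrees of freedom) over transcript length and GC content, both taken from the longest GENCODE 29 transcript. Coordinates and promoter windows are from RefSeq on GRCh38.p14, in which 88.5% of symbols were found.

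The members, lists and rules were chosen with earlier results of these data known. All 10 members are named, and from each list of regulators, relatives, targets and reference genes the 3 with the highest mean level, with NAB1, NAB2 and SRF always. EGR4, KLF13, NR4A3, CXCL1, CXCL2, PTGS2 and CCL20 are named as well, for their low counts in OVCAR3 KO.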

Additional observations from a re-analysis of the deposited data

Results flagged for a closer look

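KLF6 and KLF10 drew attention because their KO libraries moved in opposite directions in the lines, higher than mock in SKOV3 and lower than mock in OVCAR3, with counting intervals that left out 0 in both. The difference of the log2 ratios, OVCAR3 minus SKOV3, was -1.74 for KLF6 and -2.045 for KLF10. With 1 library per group the difference was not tested. Counted by sign alone, 24.4% of the 13294 genes measured in both lines were higher in SKOV3 KO and lower in OVCAR3 KO, as were 4 of the 9 members. The KLF6 ratio in SKOV3 was small, 0.08.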

How the results depend on the processing

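The count of 7 genes lower in OVCAR3 KO held under every other scaling tried (DESeq2 size factors, no factor, TMM over protein-coding genes and, chosen after seeing the data, TMM over all rows), under other prior counts and without a filter. It was 6 with the GC and length trend removed, where IER2 dropped to -0.70 and 1637 of 12678 genes in all were lower. With a CPM of at least 5, which drops EGR2 and EGR3, it was 6 of 7 genes (2148 of 11717 in all). It was 8 with a fold of 1.5 (3928 of 15560 in all) and 4 with a fold of 3 (939 of 15560 in all). Scaling moved the median of all OVCAR3 ratios between -0.17 and 0.25, and the median of the 9 genes minus it was between -1.61 and -1.55 (main scaling -1.58). With the trend removed this difference was -0.97. EGR1 ranged from -0.92 to -0.24 and EGR3 from -0.77 to -0.19 over the settings. In SKOV3 the count was 0 throughout, except 1 without a filter, which is IER3 at 0 against 3 counts. For OVCAR3 mock over SKOV3 mock, the count of 1 was 0 with no scaling factor, with the trend removed and with a fold of 3, and 2 with a fold of 1.5. Without a filter it was also 2, of which 1 was lower, IER3 at 0 against 3 counts. No ratio of KO over mock in either line, or of OVCAR3 mock over SKOV3 mock, changed sign for a measured member under these settings. For OVCAR3 KO over SKOV3 KO, EGR1, at -0.00, was 0.05 with TMM over protein-coding genes and 0.29 with the trend removed, and EGR3, at 0.26, was -0.02 with TMM over all rows. In the fit, 0 members were called by every tool, filter, scaling and block tried. These settings also called 0 genes in all, except 1 of 28739 without a filter, so the 0 says nothing particular to the members. No paired analysis was possible because the groups share a single replicate number, other than the fit's own block on the line; without that block 0 members were called as well. Genes with under 100 counts in every library, EGR2 and EGR3, are limited by depth.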

Other observations

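The genes whose pattern over the 4 libraries lay closest to that of the 9 measured members were looked up among 12774 protein-coding genes outside the lists with at least 3 counts in every library. Likeness was the Euclidean distance between a gene's centred log2 CPM and the median of the members, which was 0.01 in SKOV3 KO, 0.06 in SKOV3 mock, -0.74 in OVCAR3 KO and 0.52 in OVCAR3 mock. The 5 nearest were TRIP10 (0.0936), PIM2 (0.0938), SOX12 (0.0953), RAC1 (0.0977) and CCDC6 (0.0984). Among the members themselves IER2 lay at 0.115 and KLF4 at 0.252 from that median, and KLF6 at 1.04 and KLF10 at 1.11. With 4 libraries, such nearness is a description of these libraries and of a shape in which OVCAR3 KO is low and OVCAR3 mock high.

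In the mock libraries, relatives of the members differed more between the lines than the members did. Of the 10 relatives, 6 were at least 2-fold higher in OVCAR3 mock than in SKOV3 mock, against 9.47% of 13721 measured genes. The median ratio was 1.12 for the relatives and 0.46 for the members. EGR4 and KLF13, among the 6, reached a CPM of 1 in OVCAR3 mock but not in SKOV3 mock, on 19 and 17 counts in OVCAR3 mock. KLF2 was at 260 CPM in OVCAR3 mock and 41.4 CPM in SKOV3 mock. The difference between both sets of genes was not tested.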
